A study of Mus musculus with 22 samples.

Results

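The genes described here build the receiving side of excitatory synapses in the mouse brain: the scaffold proteins Dlg3, Dlg4, Shank1, Shank2, Shank3 and Homer1, the calcium-dependent kinase subunits Camk2a and Camk2b, and the adhesion molecule Nlgn1. They were taken by name, as every array probe whose gene name was that of a member or an older synonym (Dlgh3 and Dlgh4 in the E15 files), with each probe kept apart. This gave 14 of the 41174 probes of the array, for 8 of the 9 genes, and no probe carried the name of Shank1. The samples were 4 animals labelled Agtr2 knockout and 4 control animals at postnatal day 1 (P1), and 8 animals labelled Agtr2 knockout and 6 control animals at embryonic day 15 (E15). Agtr2, on the X chromosome, encodes the type 2 angiotensin II receptor. All RNA was total RNA from slices of frozen whole brain, and each of the 22 dual-colour Agilent arrays (8 at P1, 14 at E15) carried 1 knockout-labelled and 1 control animal in Cy3 and Cy5. Each knockout-labelled animal was hybridised in both dye orientations, except replicates 3 and 4 at E15, which had 1 orientation. For E15 replicates 1 and 2 the control animal also changed between the orientations, so there dye and control animal change together. The 6 E15 controls served 8 knockout-labelled animals, so some replicates share a control. Strain, sex and the design of the knockout allele are not given in the sources used here, and nothing states litters, so p-values measure the spread between these animals.

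At an excitatory synapse, receptors for glutamate sit in a dense protein mesh beneath the membrane, the postsynaptic density. Proteins of the Dlg family (Dlg4 is known as PSD-95) bind receptors and neuroligins, Shank proteins bridge this upper layer to Homer proteins below, and the calcium/calmodulin-dependent kinase II is both an enzyme and an abundant structural part of the mesh. Neuroligins reach across the cleft to partners on the presynaptic side. In rodent forebrain most of these synapses form after birth, and Camk2a in particular is known for low levels before birth.

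Agtr2 RNA did not check the labels. Its log2 ratio of knockout over control was 0.11 (SE 0.080) at P1, with replicates between -0.13 and 0.29, and -0.39 (SE 0.31) at E15, with replicates between -2.10 and 0.87. The adjusted p values of limma were 0.685 at P1 and 0.805 at E15. Agtr2 had 1 probe, and whether it lies in the deleted part is not given, so the animals are called knockout-labelled throughout. Between 71.3% and 89.5% of spots per P1 array and between 74.9% and 89.3% per E15 array were well above background. The P1 arrays had 287 to 3343 spots marked as uneven (outliers) each, against 52 to 381 on the E15 arrays. Every P1 array was scanned on 1 day with scanner software 8.5.1.1 and every E15 array on other days with version 8.1.1.1, so age and array batch cannot be told apart in any comparison of P1 with E15. All 10 markers of postmitotic neurons were well above background at both ages. Markers of meninges and fibroblasts, summed over 8 genes, stood at 44532 in knockout-labelled animal 8, at 42443 in control animal 1 and at 18341 in control animal 2 of E15, against 2643 to 6571 in the other E15 animals, while the P1 animals lay between 1754 and 2860.

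The 14 probes are placed as the files give them, on a build the files do not state, and the files give no exon or intron. Dlg3 was read by a probe for transcript NM_016747 at chrX:95419667-95419726. Dlg4 had 1 probe for NM_007864 that spans chr11:69765499-69767036 and 1 for the clone BC014807 at chr11:69770461-69770520. The Shank2 probe (AB099695) lies at chr7:138832900-138832959 and the Shank3 probe (NM_021423) at chr15:89612892-89612951. Homer1 had probes a and b for the short variant S (NM_011982) at chr13:89489778-89489837 and chr13:89489977-89526489, and a probe for variant d (NM_152134) at chr13:89587740-89587799. Camk2a had 1 probe for variant 1 (NM_009792) and 1 for variant 2 (NM_177407), both on chromosome 18. Camk2b had a probe for NM_007595 at chr11:5864620-5864679 and a probe for a partial sequence of the beta M isoform (AF108718) at chr11:5872669-5872728. Nlgn1 had a probe for NM_138666 at chr3:24848072-24848131 and a probe for the hippocampal cDNA AK083116 at chr3:25547934-25547993. None was saturated.

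Levels below are normalised intensities per animal: the background-corrected, scaled signal including an added offset of 50, so that a probe near 65 carries little signal and its ratios are drawn towards no difference. They are comparable between animals for 1 probe, not between probes. Of the 14 member probes, 7 were well above background in every channel. The others were the Dlg4 NM_007864 probe (8 of 8 knockout and 8 of 8 control channels at P1, against 9 of 14 and 9 of 14 at E15), Shank2 (4 of 8 and 4 of 8 at P1, against 11 of 14 and 11 of 14 at E15), Camk2a NM_009792 (7 of 8 and 7 of 8 at P1, against 10 of 14 and 9 of 14 at E15), and Camk2b AF108718, Nlgn1 AK083116 and both Homer1 NM_011982 probes, each with 6 or more of 8 channels at P1 and 12 or more of 14 at E15. All 14 probes passed the filter of 50% of channels for the comparison of ages.

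In control brains, 5 of the 14 probes were higher at P1 than at E15 and none was lower (limma, Benjamini-Hochberg adjusted p under 0.05 over 36043 probes). These were 1 probe each of Dlg4, Camk2b, Nlgn1, Camk2a and Shank3, with log2 differences of 0.41 to 1.18. Of all probes tested, 32.2% were called in controls, 16.2% higher and 16% lower at P1. In knockout-labelled brains, 4 of 14 probes were higher and none was lower, against 23.3% of 36519 probes called, 13.1% higher and 10.2% lower. The median log2 difference of the member probes was 0.14 in controls, beside -0.03 over all probes, and 0.01 in knockout-labelled animals, beside -0.02 over all probes. The 2 counts come from the same arrays and share their batch.

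**Figure D1:**
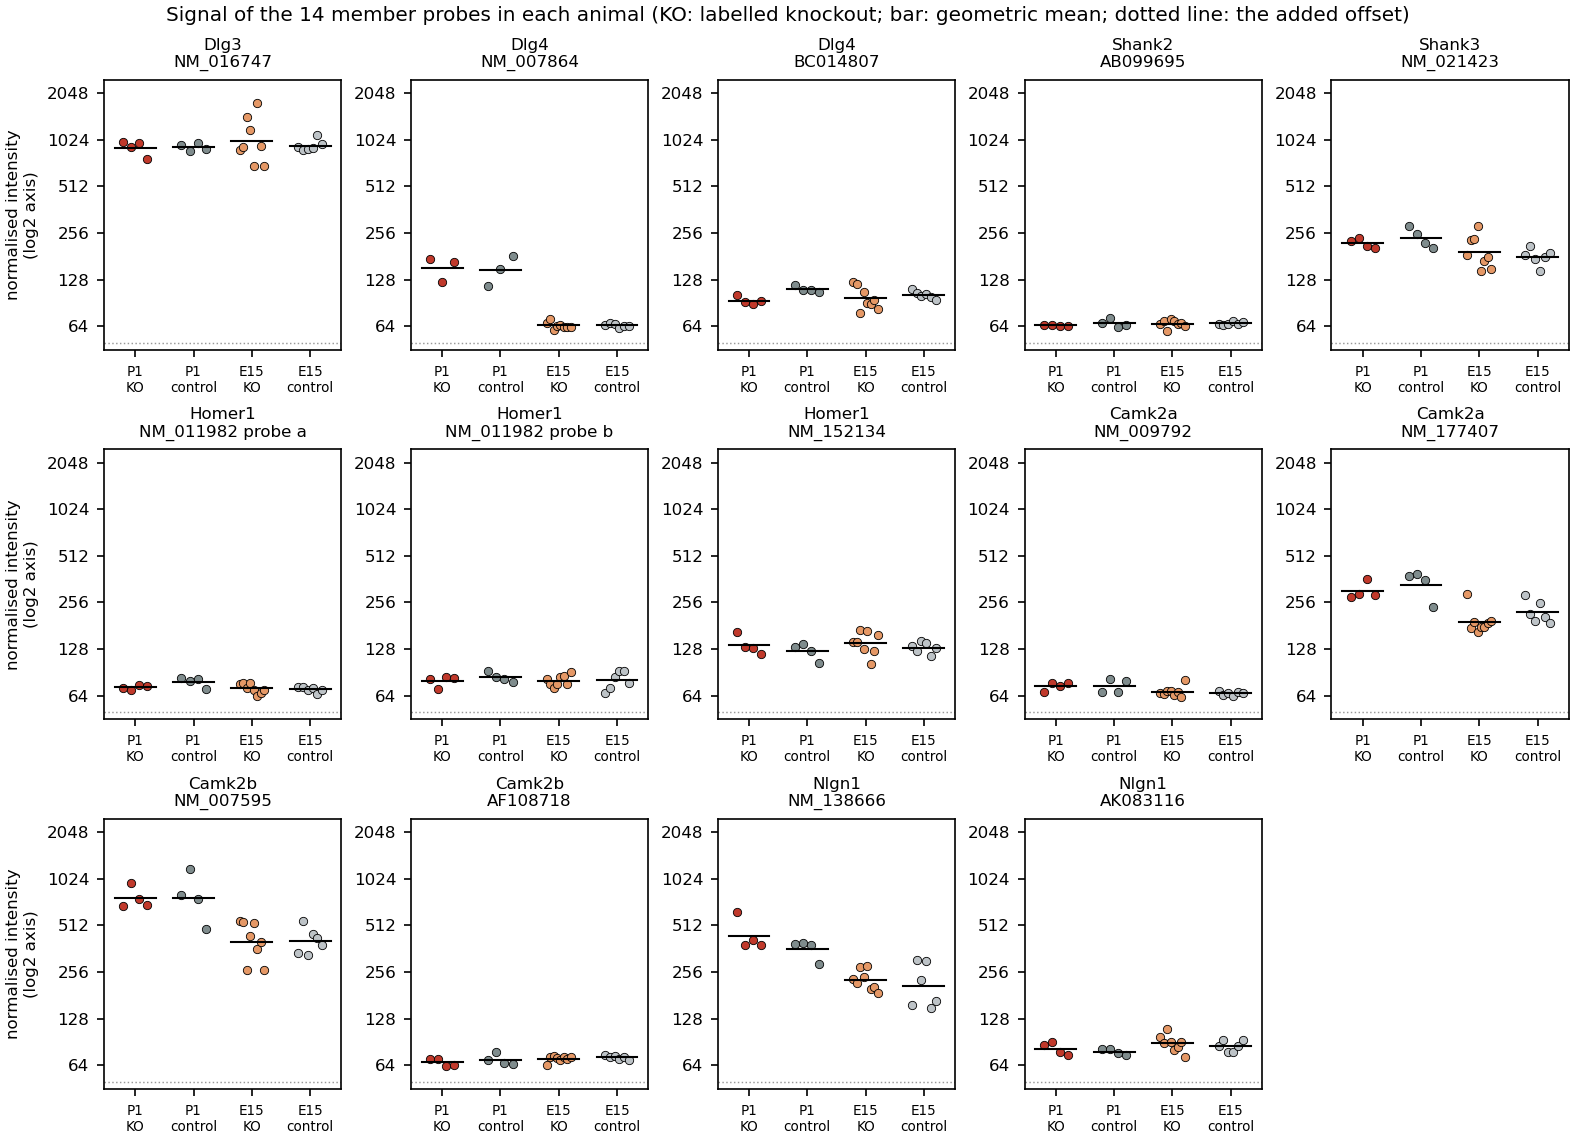
Normalised intensity (log2 axis) of each of the 14 member probes in every animal, with knockout-labelled (KO) and control animals at P1 and at E15; points are animals, bars are geometric means and the dotted line is the added offset of 50. The Dlg4 NM_007864 probe shows no overlap between the ages, with 117 to 183 in P1 controls and 62.5 to 67.3 in E15 controls, while the Shank2 points stay between 59.4 and 72.4.

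Camk2b encodes the beta subunit of calcium/calmodulin-dependent kinase II, which also binds actin. Its NM_007595 probe read 809, 1182, 755 and 486 in the P1 controls, against a lowest value of 330, a median of 402 and a highest of 546 in the 6 E15 controls. Of the P1 controls 3 lay above every E15 control, and animal 4 fell inside their range. The spot of this probe was marked as uneven on 1 P1 array. Both animals of P1 replicate 4 therefore rest on 1 array and 1 dye orientation for this probe. The difference was 0.93 on the log2 scale (SE 0.22, 1.90-fold, limma adjusted p = 0.00905). In knockout-labelled animals it read 686, 964, 760 and 691 at P1, against 262 to 549 at E15 with a median of 420, with no overlap and a difference of 0.93 (SE 0.22, adjusted p = 0.00879 in limma). The second Camk2b probe, for the beta M isoform, read 64.9 to 78.4 in P1 controls and 69.1 to 74.7 in E15 controls, and its difference of -0.06 (SE 0.065) did not pass the test.

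Camk2a encodes the alpha subunit, which is made mainly in forebrain neurons. Its NM_177407 probe read 378, 389, 355 and 238 in P1 controls, against 188 to 284 with a median of 212 in E15 controls. P1 control animal 4 was again the low one and lay inside the E15 range. The difference was 0.59 (SE 0.16, 1.51-fold, limma adjusted p = 0.0161). In knockout-labelled animals the probe read 279, 292, 364 and 286 at P1, against 164 to 291 with a median of 184 at E15. There the difference was 0.66 (SE 0.14, limma adjusted p = 0.00436), and the ages overlapped through E15 animal 1 alone, at 291. The dim NM_009792 probe read 67.7 to 81.9 in P1 controls and 64.1 to 68.4 in E15 controls, with a difference of 0.16 (SE 0.070, limma adjusted p = 0.106). With the scanner software's processed signals, which hold no offset, the NM_009792 difference was 0.91 in controls (limma adjusted p = 0.0180) and 0.86 in knockout-labelled animals (limma adjusted p = 0.0233).

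Nlgn1 encodes neuroligin 1, the adhesion molecule of excitatory synapses. Its NM_138666 probe read 387, 396, 383 and 287 in P1 controls, against 150 to 305 with a median of 198 in E15 controls. Of the E15 controls 3 lay between 150 and 167 and 3 between 228 and 305, and P1 control 4 lay under the highest of them. The difference was 0.79 (SE 0.22, 1.72-fold, limma adjusted p = 0.0211). In knockout-labelled animals it read 627, 383, 410 and 380 at P1, against 189 to 281 with a median of 224 at E15, with no overlap and a difference of 0.95 (SE 0.15, limma adjusted p = 0.000755). The AK083116 probe, which lies elsewhere in the gene, read 74.6 to 81.6 in P1 controls and 77.9 to 93.2 in E15 controls, and its difference was -0.12 (SE 0.071, limma adjusted p = 0.234).

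Dlg4 encodes PSD-95, the most abundant Dlg protein of mature excitatory synapses. Its NM_007864 probe read 117, 151 and 183 in 3 P1 controls, against 62.5 to 67.3 with a median of 65.0 in E15 controls. In knockout-labelled animals it read 175, 124 and 165 at P1, against 61.0 to 71.1 with a median of 63.8 at E15. The ages did not overlap in either group. The log2 differences on this scale were 1.18 in controls (SE 0.12, limma adjusted p = 9.84e-05) and 1.24 in knockout-labelled animals (SE 0.097, limma adjusted p = 7.56e-06). At E15 the probe lay close to the offset, with 9 of 14 channels above background in each group, so the size of its difference depends on the background correction. This probe was marked as uneven on 5 of the 8 P1 arrays and on 0 E15 arrays, so replicate 1 dropped out in both groups and the other animals rest on 1 array each. With those spots kept, the probe read 153, 137, 137 and 133 in the knockout-labelled and 121, 134, 157 and 133 in the control animals at P1, and the control difference was 1.06. With an offset of 10 it was 2.13, and with the processed signals 3.28. The BC014807 probe of the same gene read 118, 109.6, 109.4 and 107 in P1 controls and 94.5 to 111 in E15 controls, with a difference of 0.12 (SE 0.062, limma adjusted p = 0.164), so the 2 Dlg4 probes disagreed.

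Among the other scaffolds, Shank3, a bridging scaffold of the postsynaptic density, read 284, 251, 220 and 205 in P1 controls, against 145 to 212 with a median of 182 in E15 controls. The difference was 0.41 (SE 0.12, 1.33-fold, limma adjusted p = 0.0207), and P1 control 4 lay within the E15 range. In knockout-labelled animals Shank3 read 227, 238, 211 and 206 at P1, against 145 to 286 with a median of 181 at E15, and the difference of 0.19 (SE 0.16, limma adjusted p = 0.427) did not pass. Whether the age difference of Shank3 differs between the groups was tested as the knockout ratio of P1 minus E15, which was -0.16 (SE 0.077, limma adjusted p = 0.904). Dlg3, known as SAP102 and as the Dlg protein of young synapses, read 940, 866, 972 and 886 in P1 controls and 876 to 1106 in E15 controls, with a difference of -0.04 (SE 0.076, limma adjusted p = 0.739). Its 95% interval ran from -0.20 to 0.13. Shank2 read 63.4 to 72.4 in P1 controls and 65.1 to 69.5 in E15 controls, close to the offset. For Homer1, whose short form lacks the part that joins Homer proteins to each other, probe a read 70.9 to 83.3 in P1 controls and 66.1 to 73.0 in E15 controls, with a difference of 0.16 (SE 0.063, limma adjusted p = 0.0704). With the processed signals the difference of Homer1 probe a was 0.84 and passed (limma adjusted p = 0.00405). Homer1 probe b and the NM_152134 probe of variant d differed by 0.07 (SE 0.10) and -0.08 (SE 0.091), with adjusted p of 0.656 and 0.536 in limma.

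The calls for Camk2a, Nlgn1 and Shank3 in controls lay close to the threshold, and leaving out a P1 control moved them past it while the differences stayed nearly as large. Without P1 control 1 the log2 difference was 0.53 for Camk2a NM_177407 (limma adjusted p = 0.0512), 0.75 for Nlgn1 NM_138666 (0.0562) and 0.33 for Shank3 (0.0652), and 2 member probes were called, those of Dlg4 and Camk2b. Without P1 control 2 these differences were 0.52, 0.74 and 0.38, with adjusted p of 0.0526, 0.0586 and 0.0576 in limma, and without P1 control 3 the Nlgn1 difference was 0.76 (limma adjusted p = 0.0582). Without P1 control 4, the animal low in Camk2a, Camk2b and Nlgn1, 6 probes were called, with Homer1 probe a at 0.21 (limma adjusted p = 0.0235). That animal also had the lowest summed signal of 9 forebrain markers among the P1 controls, 2474 against 5414, 6665 and 5972 in the others. Among the P1 knockout-labelled animals, animal 1 had the highest forebrain sum, 13120. Its Camk2a NM_177407 and Camk2b NM_007595 levels, 279 and 686, were the lowest of the group, and its Nlgn1 NM_138666 level, 627, the highest. Knockout-labelled animal 4 had the lowest sum, 2202, with 286 and 691 for the kinase probes and the lowest Nlgn1 level, 380. In the animals of each group, forebrain sums ran from 2202 to 13120 in knockout-labelled and from 2474 to 6665 in control animals at P1, and from 5293 to 23359 in knockout-labelled and from 3921 to 15288 in control animals at E15. The part of forebrain tissue in the slices in these values was not tested. In whole-brain RNA, fewer cells of a type and less RNA per cell cannot be told apart.

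**Figure D2:**
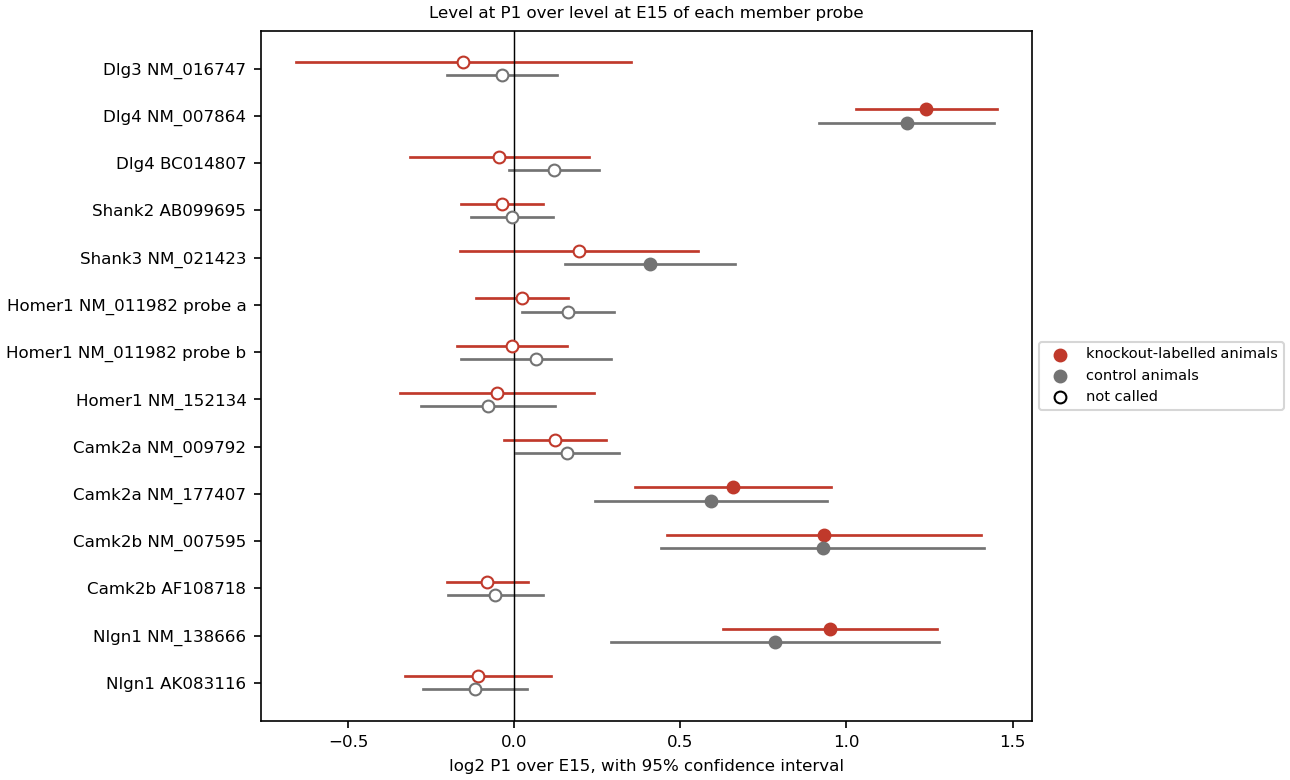
Log2 difference of P1 over E15 for each member probe, in knockout-labelled (upper point) and control animals (lower point); lines are 95% confidence intervals, filled points passed the adjusted p threshold and open points did not. The probes of Dlg4 NM_007864, Camk2a NM_177407, Camk2b NM_007595 and Nlgn1 NM_138666 are filled in both groups, and Shank3 is filled in controls alone.

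Nlgn1, Camk2b and Shank3 are among the members with a called age difference, and no probe of Homer1 was called at the settings used here. RefSeq promoter windows of the table's build, GRCm38.p6, are shown for these 4 members. Each is the 250 bases before a transcription start, 5′ to 3′ on the gene's strand, with GC boxes (GGGCGG or, on the other strand, CCGCCC) and half-sites of the cAMP response element (TGACG or CGTCA) in capitals.
Nlgn1, chr3:26331910-26332159, minus strand: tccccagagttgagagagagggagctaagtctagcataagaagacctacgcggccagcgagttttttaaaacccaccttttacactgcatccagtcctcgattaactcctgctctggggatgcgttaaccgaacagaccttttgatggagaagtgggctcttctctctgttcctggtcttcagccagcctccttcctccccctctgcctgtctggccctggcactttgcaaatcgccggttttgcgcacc
Camk2b, chr11:6065749-6065998, minus strand: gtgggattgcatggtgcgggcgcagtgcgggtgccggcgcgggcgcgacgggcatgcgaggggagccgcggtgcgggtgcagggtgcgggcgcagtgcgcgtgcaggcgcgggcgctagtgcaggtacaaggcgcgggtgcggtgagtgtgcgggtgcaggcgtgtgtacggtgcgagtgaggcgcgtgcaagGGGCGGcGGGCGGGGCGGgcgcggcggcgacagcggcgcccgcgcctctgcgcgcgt
Shank3, chr15:89499358-89499607, plus strand: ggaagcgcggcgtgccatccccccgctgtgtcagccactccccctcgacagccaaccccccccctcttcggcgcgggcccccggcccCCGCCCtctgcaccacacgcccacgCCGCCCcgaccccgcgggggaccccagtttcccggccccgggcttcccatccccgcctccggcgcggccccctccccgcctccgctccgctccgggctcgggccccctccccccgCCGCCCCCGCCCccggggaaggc
Homer1, chr13:93303507-93303756, plus strand: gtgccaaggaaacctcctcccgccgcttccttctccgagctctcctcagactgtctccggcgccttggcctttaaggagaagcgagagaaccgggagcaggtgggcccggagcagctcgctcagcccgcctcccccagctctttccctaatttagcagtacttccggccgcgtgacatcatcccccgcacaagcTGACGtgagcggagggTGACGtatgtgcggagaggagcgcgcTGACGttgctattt
The windows of Camk2b and Shank3 hold 3 and 4 GC boxes, of which a pair overlaps or adjoins in each, and 78.4% and 82.4% of their bases are G or C. The Homer1 window shown holds 3 half-sites and no GC box, and the Nlgn1 window shown holds neither, with 53.6% G or C. Both genes have a second window in the table, with neither motif and 46.8% (Homer1) and 43.6% (Nlgn1) G or C. Over 32851 windows of the same length, 32.7% hold a GC box and 17.8% a half-site, on either strand. The whole element TGACGTCA is in none of these 4 windows and in 1.55% of all. Dlg4, which also had a called probe, has 3 windows in the table, and 1 of them holds a GC box and a half-site. Dlg3, with no called probe, has 2 windows. The first holds 1 half-site and no GC box (55.2% G or C), the other 1 GC box and no half-site (69.2%). Shank2 has none. The relation of these motifs to the age differences was not tested.

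No member probe was called between knockout-labelled and control animals at either age, nor was any other probe. At P1, 0% of 34413 probes passed in limma, with 3443 at an unadjusted p under 0.05, 1 of them a member probe. At E15, 0% of 34175 passed, with 2214 at an unadjusted p under 0.05, none of them a member probe. Of the 13 member probes testable at P1, 4 lay above 0 and 9 below with a median log2 ratio of -0.05, beside 0.00 over all probes. Of 14 at E15, 9 lay above 0 and 5 below with a median of 0.02, beside 0.00 over all probes.

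**Figure D3:**
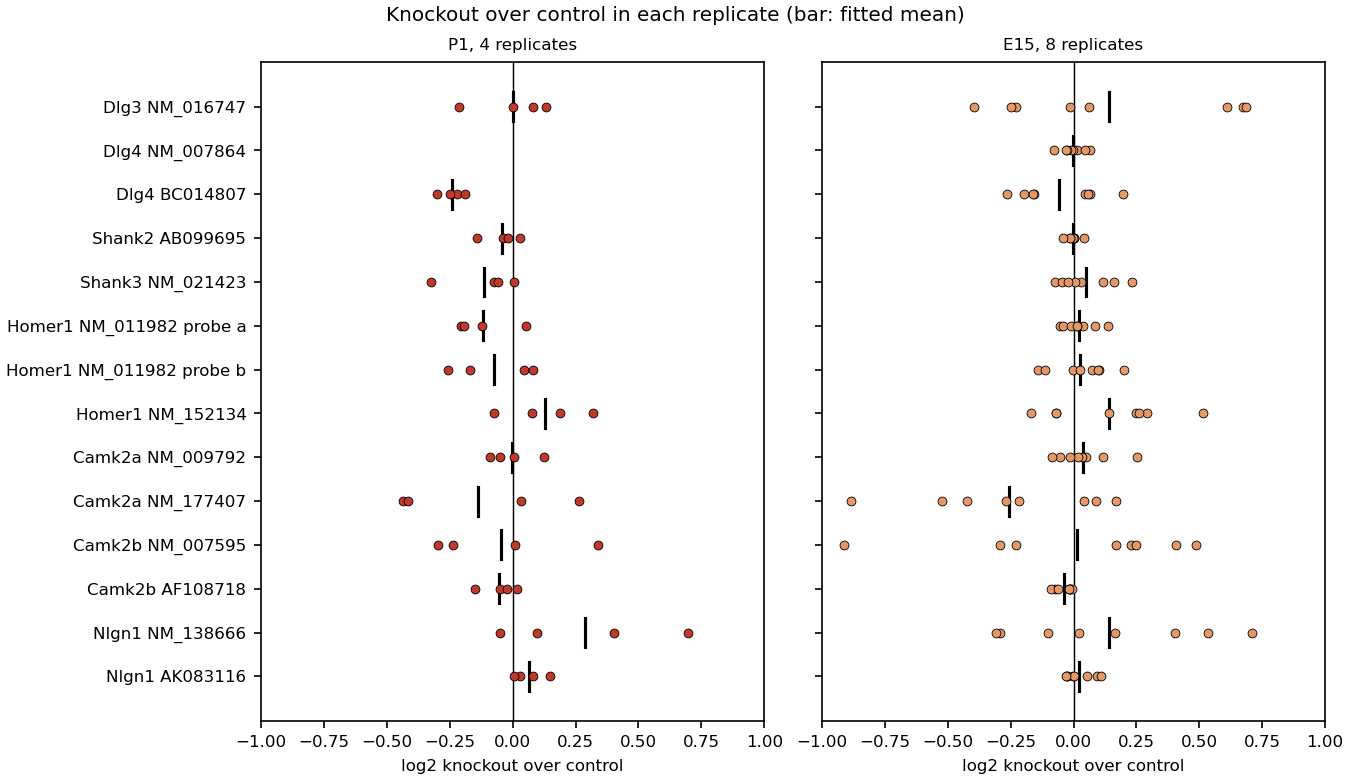
Log2 ratio of knockout over control for each member probe, 4 replicates at P1 (left) and 8 at E15 (right); points are replicates and bars are fitted means. Dlg4 BC014807 has all 4 P1 points between -0.30 and -0.19, while Dlg3, Camk2b NM_007595 and Nlgn1 NM_138666 scatter widely around 0 at E15. The E15 points of Camk2a NM_177407 run from -0.88 to 0.17, with a median of -0.24.

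The Dlg4 BC014807 probe was the member nearest to a call. At P1 it read 101, 92.2, 88.8 and 93.4 in knockout-labelled animals, against 118, 109.6, 109.4 and 107 in controls, without overlap. How many of all probes parted the groups in this way at P1 was not counted. The 4 replicate log2 ratios were -0.22, -0.25, -0.30 and -0.19. The fitted ratio was -0.24 (SE 0.040), a level 0.847 times that of controls, with an unadjusted p of 0.00165 and an adjusted p of 0.386 in limma, which does not pass. Over the alternatives tried, its adjusted p ran from 0.304 to 0.637 and its ratio from -0.50 with processed signals to -0.22. At E15 the same probe had 4 of 8 replicates below 0, between -0.27 and 0.20, and a fitted ratio of -0.06 (SE 0.058). The difference between the ages, -0.18 (SE 0.086), had an adjusted p of 0.904 in limma. The other Dlg4 probe gave no P1 ratio, since 3 replicates had 1 dye orientation and 1 had none. With its uneven spots kept, that ratio was 0.04 (SE 0.093, limma adjusted p = 0.911), and at E15 its replicates lay between -0.08 and 0.06.

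For the brighter kinase and adhesion probes the spread between replicates was wider than the fitted group difference. For Nlgn1 NM_138666 the P1 replicates were 0.70, -0.05, 0.10 and 0.40 (fitted 0.29, SE 0.13, limma adjusted p = 0.534), and the E15 replicates ran from -0.31 to 0.71 with a median of 0.09. Camk2a NM_177407 stood at -0.44, -0.41, 0.04 and 0.26 in the P1 replicates, a fitted ratio of -0.14 (SE 0.14), and from -0.88 to 0.17 with a median of -0.24 at E15. Its E15 ratio of -0.26 (SE 0.12, limma adjusted p = 0.760), below 0 in 5 of 8 replicates, had the lowest p of any member at E15. Within E15 scan days it was -0.37 over replicates 1 to 4 and -0.02 over replicates 6 and 7. Over replicates 5 and 8, each scanned in 1 dye orientation on day 1 and in the other on day 2, it was -0.24. Camk2b NM_007595 stood at -0.24, -0.29, 0.01 and 0.34 at P1, a fitted ratio of -0.05 (SE 0.12), and ran from -0.91 in replicate 3 to 0.49 in replicate 1 at E15. Replicates 1 and 2 at P1 were below 0 for both of these kinase probes, and replicate 4 was above 0 for both. The Camk2b value of replicate 4 rests on 1 dye orientation. In P1 replicates 1 to 4, the dim Camk2a NM_009792 probe stood at 0.004, -0.09, 0.13 and -0.05. The dim Camk2b AF108718 probe stood at 0.02, -0.15, -0.05 and -0.02. The beta M probe of Camk2b lay below 0 in 8 of 8 E15 replicates, at values between -0.09 and -0.01 (fitted -0.04, SE 0.024, limma adjusted p = 0.776).

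Among the scaffolds, Dlg3 gave the widest E15 spread. Its replicates 3, 4 and 6 stood at 0.61, 0.67 and 0.68 and the other 5 between -0.39 and 0.06, for a fitted ratio of 0.14 (SE 0.15), while at P1 they were 0.08, 0.13, 0.00 and -0.21. Within E15 scan days the Dlg3 ratio was 0.28 over replicates 1 to 4 and 0.34 over 6 and 7. Over replicates 5 and 8, whose dye orientations were scanned on different days, it was -0.32. Replicates 3 and 4 are those with 1 dye orientation. Shank3 stood at -0.32, -0.07, -0.06 and 0.01 at P1 (fitted -0.11, SE 0.066) and between -0.07 and 0.23 at E15. Homer1 probe a stood at -0.20, -0.19, -0.12 and 0.05 at P1 (fitted -0.12, SE 0.058) and between -0.05 and 0.14 at E15. Homer1 NM_152134 stood at 0.32, -0.08, 0.08 and 0.19 at P1 (fitted 0.13, SE 0.073) and between -0.17 and 0.51 at E15. Fitted ratios not yet given lay between -0.08 and 0.07 at P1. At E15 they were 0.14 for Homer1 NM_152134 (SE 0.080) and Nlgn1 NM_138666 (SE 0.12), and 0.05 for Shank3 (SE 0.042). The other E15 fitted ratios not yet given lay between 0.00 and 0.04. For the difference of P1 minus E15 in the knockout ratio, 0.00618% of 32342 probes passed and 0 of 13 member probes. An unadjusted limma p under 0.05 was reached by 1747 of all probes and by 1 member. That member was Homer1 probe a, at -0.14 (SE 0.059, limma adjusted p = 0.904).

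**Figure D4:**
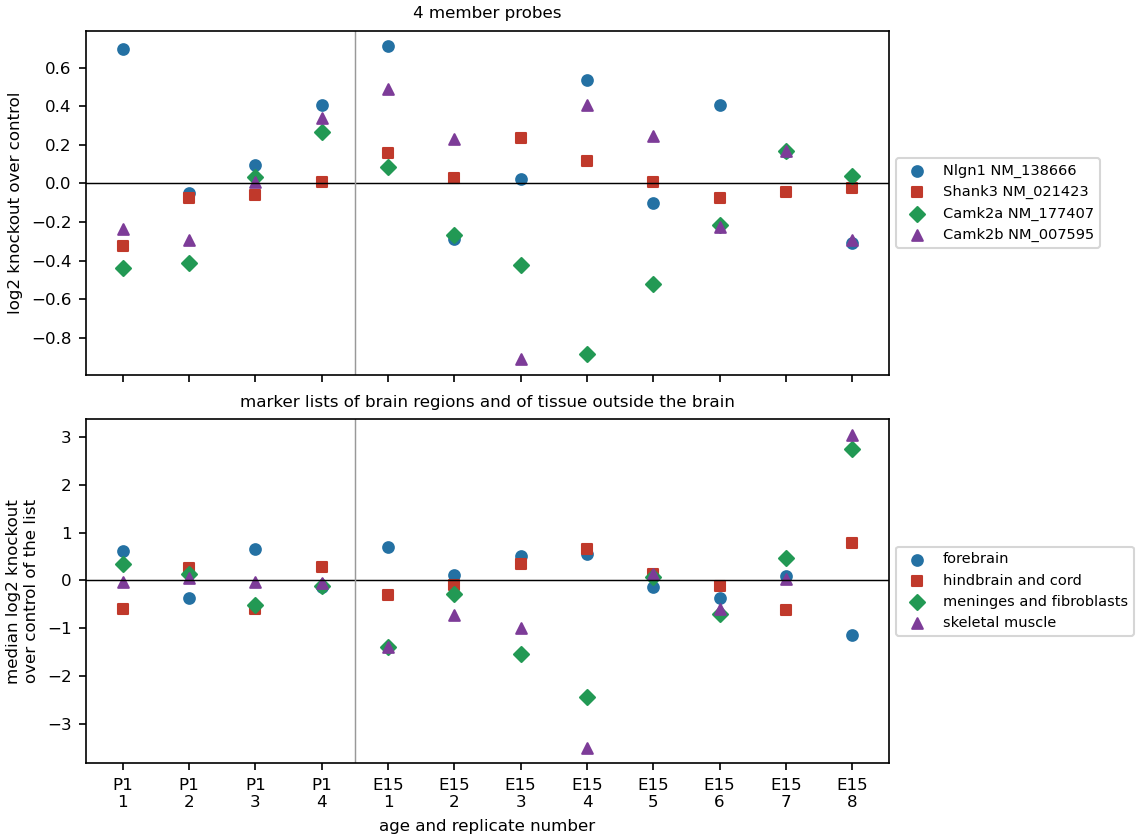
Log2 ratio of knockout over control in each replicate, for 4 member probes (top) and as the median of 4 marker lists (bottom); the vertical line parts P1 from E15 replicates and both panels have their own axis. Replicate 8 of E15 stands at 2.76 for meninges and fibroblasts and replicate 4 at -2.43, and the forebrain median is 0.63 and 0.65 in P1 replicates 1 and 3.

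Marker lists of brain regions and of tissue around the brain moved between replicates as well. At P1 the median log2 ratio of the forebrain list was 0.63, -0.37, 0.65 and -0.15 in replicates 1 to 4, and that of the hindbrain and cord list was -0.60, 0.26, -0.59 and 0.27. Postmitotic neuron markers stood at -0.24, -0.22, -0.05 and 0.18 in the same replicates. At E15, the meninges list stood at 2.76 in replicate 8 and at -2.43 in replicate 4. Without the 6 E15 arrays that carry knockout-labelled animal 8 or control animals 1 and 2, the E15 ratio was -0.21 for Camk2a NM_177407 (-0.26 with all arrays), 0.27 for Camk2b NM_007595 (0.01), -0.04 for Nlgn1 NM_138666 (0.14) and -0.22 for Dlg3 (0.14). None of these passed in limma, with adjusted p of at least 0.967, and those of Nlgn1 and Dlg3 changed sign. The part of these tissues in the member ratios was not tested.

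Other genes of the synapse were counted in 5 lists, with the brightest probe per gene. In controls, 12 of 16 calmodulin kinase relatives and calcium signalling genes were higher at P1 and 1 was lower, with a median log2 difference of 0.60. Nrgn, which binds calmodulin in dendrites, was higher by 2.35 and Camk4, a nuclear kinase, by 1.56, while Camk1g was lower, at -0.57. Of 16 presynaptic genes 14 were higher and 1 lower (median 0.71), led by the vesicle proteins Syn2 at 1.75 and Syp at 1.48, with the vesicular glutamate transporter Slc17a7 lower, at -0.22. Of 25 adhesion genes 12 were higher and 0 lower (median 0.29), led by Cadm3 at 1.70 and the receptor phosphatase Ptprd at 1.49. Of 20 other scaffolds 7 were higher and 2 lower (median 0.26), led by Gphn, the scaffold of inhibitory synapses, at 1.61 and Magi2 at 1.11, with Dlgap2 at -0.49 and Ppp1r9b at -0.35. Of 15 glutamate receptor genes 6 were higher and 2 lower (median 0.23), led by the AMPA receptor subunit Gria2 at 1.63 and the auxiliary subunit Cacng2 at 1.49, with Cacng8 and Grin2d both at -0.34.

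In knockout-labelled animals the counts higher and lower at P1 were 8 and 1 for the calmodulin kinase relatives, 9 and 0 for presynaptic genes, 9 and 0 for adhesion, 7 and 0 for other scaffolds, and 5 and 0 for glutamate receptors. Cell type markers moved with age too. Of 10 markers of postmitotic neurons, 3 were higher at P1 in knockout-labelled animals and 8 in controls, and of 10 markers of dividing cells, 8 were lower at P1 in each group. The part of a changing mix of cells in the member differences was not tested.

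**Figure D5:**
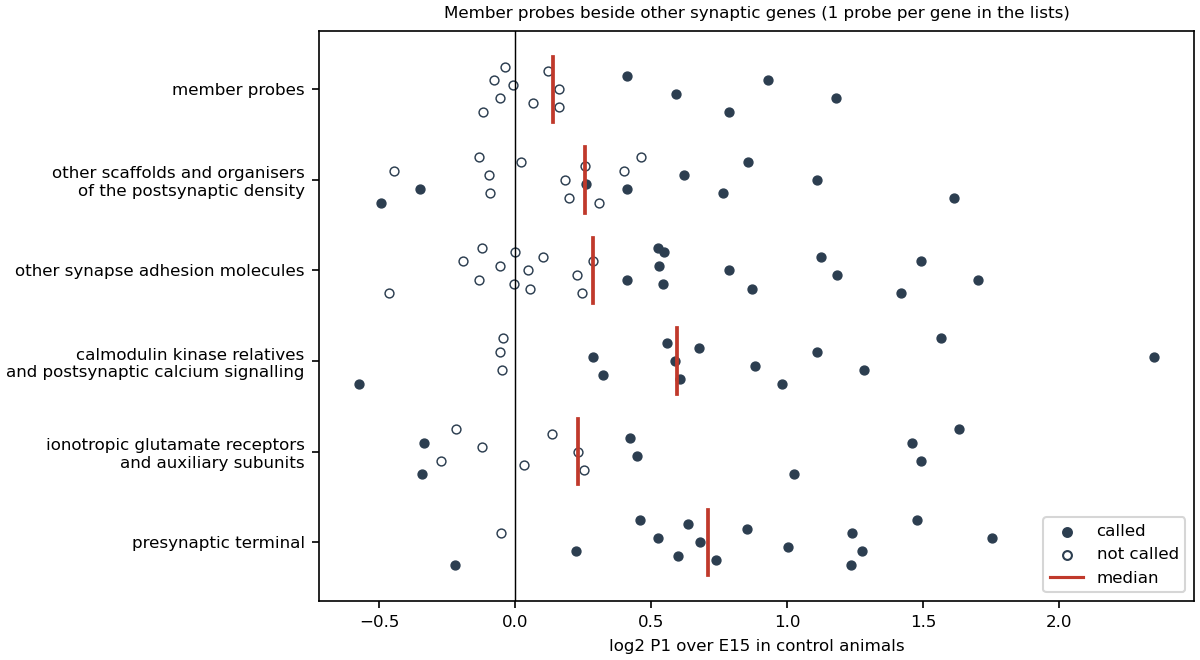
Log2 difference of P1 over E15 in control animals for the 14 member probes and for the genes of 5 synaptic lists (1 probe per gene); filled points passed the adjusted p threshold, open points did not, and red bars are medians. The member median of 0.14 is over all 14 probes, dim second probes of a gene included. The list medians, from the brightest probe per gene, lie between 0.23 for glutamate receptors and 0.71 for presynaptic genes. The member and list medians therefore do not rest on the same basis.

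No list gene was called between knockout-labelled and control animals. The ratio farthest from 0 in each list at P1, with limma's adjusted p in brackets, was -0.69 for Gphn (0.402), -0.55 for Cacng2 (0.420), -0.43 for Syn1 (0.588), -0.38 for Nrgn (0.714) and -0.33 for Slitrk3 (0.463). Among the other scaffolds Tanc2 stood above 0 at P1, at 0.49 (limma adjusted p = 0.434). At E15 the ratio farthest from 0 in each list other than adhesion was 0.41 for Tanc2, 0.39 for Syt1, 0.34 for Gria2 and 0.33 for Camkk2, each with an adjusted p of 0.758 in limma. The list medians ran from -0.20 for presynaptic genes to 0.02 for other scaffolds at P1, and from 0.03 for the calmodulin kinase relatives to 0.10 for glutamate receptors at E15.

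The genes whose level was most like that of each member's brightest probe were found by Pearson's r over the 22 animals. For Nlgn1 these were Prkce and Nrg3, at 0.91 and 0.91, which became 0.78 and 0.72 once the mean of each age was removed. Camk2b was nearest to Cd247 and Myrip, at 0.89 and 0.89 (0.73 and 0.69 without the age means), and Camk2a to Cftr and Dmtn, at 0.88 and 0.86 (0.66 and 0.64). Shank3 was nearest to Olfr623 and Fam228b, both at 0.93, and Shank2 to Unc5d and Fam222b, at 0.87 and 0.80. For Homer1 NM_152134 they were Pbrm1 and Sec24a, at 0.87 and 0.85, for Dlg3 Wdr47 and Slc39a8, at 0.79 and 0.78, and for Dlg4 BC014807 Kirrel3 and Dvl1, at 0.78 and 0.77. For these 5 members removing the age means moved r by less than 0.05. The animals share arrays and scaling, and no test was made of these values.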

How the data were processed

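RNA of whole brain was measured on 22 dual-colour arrays. Each deposited scanner file gives, per the file headers, the mean spot intensity and median local background intensity of both channels. It also gives, per the file headers, the log10 ratio of the processed signals, Cy5 over Cy3. The deposited matrix matched these log10 ratios within 0.005. Tissue steps are per the labels' protocols; the genome build is not given in the sources used here.

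Mean intensities were corrected by normexp (offset 50) and loess within arrays (control spots at weight 0), spots marked as outliers were set missing, and spots of a probe were averaged. Ratios were expressed as log2 of knockout over control and averaged per replicate; a value from 1 orientation had the probe's mean dye effect of that age subtracted. For levels, channels were separated after Aquantile scaling and averaged per animal. Probes well above background in at least 50% of channels were tested. For P1 over E15 within a group, 50% of that group's channels at either age was enough. For the knockout ratio of P1 minus E15, it was required at both ages. Tests used limma 3.58.1 in R 4.3.3 (with statmod 1.5.0 and the package data.table at version 1.17.8). Sets of replicates sharing a control animal were a random block at E15 (correlation 0.0605, estimated on every 8th feature) and for the difference of the ages (0.0618). Adjusted p values are Benjamini-Hochberg's, over every probe tested in a comparison, with 0.05 as threshold, and intervals are at 95%. For the lists, 31647 probes had a symbol, 22161 of them through an accession. Figures used matplotlib 3.10.9 in Python 3.11.15. The fits were tested on simulated data. Signal over background and the number of arrays limit the precision.

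Named besides the members were, per list, the 2 genes with the largest called change in each direction in control animals, the gene with the largest knockout ratio at each age, and the 2 genes most like each member's brightest probe; 1 gene that this rule names is not reported here. The members, lists and tests were chosen with earlier results of these data known. Promoter windows were matched by symbol, for 6 members printed or described here. Alternatives were the scanner software's processed signals, the deposited matrix, an offset of 10, other filters, outlier spots kept, single dyes, scan day as a block, and animals left out.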

Additional observations from a re-analysis of the deposited data

Results flagged for a closer look

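In 81 groups of 4 to 8 animals or replicates, 8 held 1 animal that stood apart from the others of its group by Dixon's 95% limit, where chance gives about 1 in 20. Values are log2 levels. Nlgn1 NM_138666 had a pair of these at P1: knockout-labelled animal 1 was high at 9.292, against 8.571 to 8.679 in the other 3, and control animal 4 was low at 8.167, against 8.581 to 8.628. For Camk2a NM_177407, knockout-labelled animal 3 at P1 was high at 8.508, against 8.125 to 8.190 in the others. For the same probe, knockout-labelled animal 1 at E15 was high at 8.185, against 7.362 to 7.608. For the dim Camk2a NM_009792 probe, knockout-labelled animal 8 at E15 stood at 6.335, against 5.974 to 6.104, and this animal also had the highest sum of meninges markers. For Camk2b AF108718, knockout-labelled animal 1 at E15 was low at 6.013, against 6.122 to 6.192. For Homer1 NM_011982 probe b, knockout-labelled animal 2 at P1 was low at 6.148, against 6.363 to 6.396. For Dlg3, control animal 5 at E15 was high at 10.11, against 9.775 to 9.901.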

How the results depend on the processing

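Between knockout-labelled and control animals, 0 member probes were called at P1, at E15 or for the difference of the ages under every alternative run. For P1 over E15 in controls, 5 member probes were called, against 7 with the processed signals, 4 with outlier spots kept, 4 with all channels well above background, 3 with Cy3 channels alone, 2 with Cy5 channels alone, and 2 to 6 with 1 animal left out. In knockout-labelled animals 4 were called, against 5 with the processed signals, 3 with all channels well above background, 3 with Cy5 alone, and 4 with any 1 animal left out; with Cy3 alone 4 were called, with Shank3 gained at 0.44 (limma adjusted p = 0.0184). Dlg4 NM_007864 was not tested in either group where all channels had to be well above background, nor with Cy3 alone in knockout-labelled animals or Cy5 alone in controls. Without E15 control animals 1 and 2, chosen after seeing the data, 5 were called in controls. Shank3 lost its call in controls with outlier spots kept (adjusted p = 0.0570 in limma), with Cy3 alone (0.234) and with Cy5 alone (0.0532). Also in controls, Nlgn1 NM_138666 lost its call with Cy3 alone (limma adjusted p = 0.0671). Camk2a NM_177407 lost its control call with Cy5 alone (limma adjusted p = 0.143). In knockout-labelled animals Camk2b NM_007595 lost its call with Cy5 alone (limma adjusted p = 0.111). No called value changed sign, while values not called in either fit did so in some alternatives. Over all probes, calls in controls numbered 11611, against 6958 with Cy3 and 6700 with Cy5 alone and 8639 to 12153 with 1 animal left out. In knockout-labelled animals they numbered 8513, against 4692 where every channel had to be well above background, and 5421 to 9338 with 1 animal left out. At E15 they numbered 0, against 1 with the processed signals, 1 with the deposited matrix and 0 to 1 with 1 replicate left out, and at P1 0 to 0. For the difference of the ages they numbered 2, against 16 with no filter and 0 with processed signals, the matrix, an offset of 10, outlier spots kept, all channels well above background, replicates 3 and 4 left out, or the 6 arrays left out, and 0 to 38 with 1 replicate left out (38 without P1 replicate 4). The causes were not tested. All P1 arrays shared a scan day, so no value within a day exists there. No paired analysis was possible because replicate numbers at P1 and E15 name different animals and pairs at 1 age are already joined on an array. Signal near background limits what Dlg4 NM_007864, Shank2, Homer1 probes a and b, Camk2a NM_009792, Camk2b AF108718 and Nlgn1 AK083116 can show.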
